A study of Mus musculus with 15 samples.

Results

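The mouse mitochondrial chromosome carries 37 genes, and all 37 had a row of counts in these data. They were chosen as every row whose identifier placed it on chrM, out of 17493 rows, so that membership follows from position and not from a measured value. The set holds 13 protein-coding genes, 2 ribosomal RNA genes (mt-Rnr1 and mt-Rnr2, which are the RNAs of the small and the large mitochondrial ribosome subunit) and 22 transfer RNA genes. After a filter on low counts, all 13 protein-coding genes, both ribosomal RNAs and 9 of the 22 transfer RNAs were tested, as 24 of 10831 genes.

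RNA was measured in 15 bulk libraries of CD8+ OT-I T cells, taken from the spleen and lymph nodes of OT-1 mice (females, age not given). The strain is C57BL/6-Tg(TcraTcrb)1100Mjb/Crl, whose T cells all carry one transgenic receptor for an ovalbumin peptide. The 5 groups of 3 libraries were unstimulated cells at 0 h, cells after 8 h or 22 h with immunofilaments (IF), and cells after 8 h or 22 h with dendritic cells (DC). The IF are labelled IF-pMHC(SIIT)/IL-2, that is, as carrying peptide-MHC and interleukin-2, and were given at 5 ng/ml. The DC, grown with Flt-3Ligand and pulsed with SIITFEKL, were added as 20000 cells to wells of 50000 T cells. Interleukin-2 is named for the IF groups alone. All groups were sorted as viable CD8+ CD103- cells, and no group held cells cultured without a stimulus for 8 h or 22 h, so stimulation and time in culture cannot be told apart against the unstimulated cells. The titles number the replicates of each group Don1 to Don3, and nothing states whether they are separate animals, so p-values measure the spread between these libraries.

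Mitochondrial DNA is read from both strands as long precursor RNAs that span most of the circle. Transfer RNAs lie between most of the messenger and ribosomal RNAs, and their excision by RNase P and ELAC2 frees the RNAs on either side. The 13 proteins are subunits of respiratory complexes I, III, IV and V, which are completed by many nuclear-encoded subunits. Messenger and ribosomal RNAs receive short A tails, mature transfer RNAs end in an added CCA, and the libraries here were primed with oligo-dT. In T cells, activation is known to be followed by mitochondrial growth.

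The transfer RNA genes below are those whose counts passed the test in at least one comparison (mt-Tt, mt-Tw and mt-Tc), with mt-Tv between the ribosomal RNAs for comparison. Sequences are from GENCODE vM21 transcripts on build GRCm38, 5′ to 3′ on the strand of the gene, with the anticodon in capitals. The genes are mt-Tt at chrM:15289-15355 (plus strand, threonine), mt-Tw at chrM:4950-5016 (plus strand, tryptophan), mt-Tc at chrM:5192-5257 (minus strand, cysteine) and mt-Tv at chrM:1025-1093 (plus strand, valine).
mt-Tt: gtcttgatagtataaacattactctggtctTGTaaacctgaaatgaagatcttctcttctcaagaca
mt-Tw: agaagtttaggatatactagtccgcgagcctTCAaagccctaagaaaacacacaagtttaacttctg
mt-Tc: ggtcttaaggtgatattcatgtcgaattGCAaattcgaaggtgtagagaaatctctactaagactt
mt-Tv: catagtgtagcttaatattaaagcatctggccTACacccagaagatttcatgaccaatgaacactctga

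The coding sequence of mt-Atp8 at chrM:7766-7969 (plus strand) is shown because it had the lowest log2 fold change of the messenger RNAs that passed the test and because it ends inside mt-Atp6. Capitals mark the 43 bases that both genes share, and reads from them can have been counted for either gene.
mt-Atp8: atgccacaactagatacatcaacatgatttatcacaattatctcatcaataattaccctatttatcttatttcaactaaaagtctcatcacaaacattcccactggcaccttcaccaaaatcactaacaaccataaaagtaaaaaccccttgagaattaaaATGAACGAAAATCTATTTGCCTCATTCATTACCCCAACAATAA

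Further stretches come from the ribosomal RNAs, at chrM:715-754 in mt-Rnr1 and chrM:1478-1517 in mt-Rnr2, both on the plus strand. Capitals mark the 20 bases of each gene that are richest in A, with 15 A in mt-Rnr1 and 16 A in mt-Rnr2, against 8 to 14 in the richest 20 bases of each protein-coding gene. A match of this kind is a description of the letters, and priming from it was not tested.
mt-Rnr1 window: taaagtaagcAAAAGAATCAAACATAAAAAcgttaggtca
mt-Rnr2 window: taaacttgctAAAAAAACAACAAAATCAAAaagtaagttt

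Library totals ran from 2892874 to 19806730 counts, and the largest was IF 22 h replicate 3. Of 11 listed CD8 T cell markers 10 had rows, and their summed level was 10990 to 11892 CPM (counts scaled to library size and composition by TMM) before stimulation and 5036 to 7752 after it. The summed level of 20 dendritic cell markers was 1099 to 1937 CPM in unstimulated, 555 to 826 in IF 8 h, 1308 to 1666 in DC 8 h, 625 to 882 in IF 22 h and 763 to 1056 in DC 22 h libraries. In unstimulated libraries Cd74 held 62.4 to 148 CPM of this sum and Itgax and Fscn1 less, so other listed genes held most. The highest sum was in a group with no DC added, so the sum cannot be read as an amount of dendritic cell RNA. Zbtb46 was at 0 in all libraries of the unstimulated and IF 8 h groups, Ccl17 in the unstimulated and Batf3 in the IF 8 h group. Single markers differed in direction: Fscn1 was at 126 to 168 CPM in DC 8 h and 72.9 to 94.8 CPM in DC 22 h against 0 to 6.75 CPM in unstimulated libraries, and Itgax at 2.05 to 7.69 CPM in the DC groups against 12.8 to 16.3 CPM. With IF, Fscn1 was at 0.268 to 0.663 CPM at 8 h and at 5.83, 21.5 and 43.8 CPM in replicates 1, 2 and 3 at 22 h. Itgax was at 14.3, 14.0 and 31.8 CPM in the same IF 22 h libraries, and the last was the highest of all 15 libraries. Of 17 tested markers 2, 3, 2 and 3 were higher and 6, 0, 5 and 4 lower than in unstimulated cells at IF 8 h, DC 8 h, IF 22 h and DC 22 h by edgeR, where 2.63% to 3.41% of all genes were higher and 3.44% to 4.72% lower. With IF against DC 4 markers were lower at 8 h (0.434% of all genes), and at 22 h 1 was higher and 1 lower (1.23% and 1.2% of all genes). What part other cells had in the mitochondrial counts was not tested, and in bulk samples fewer cells of a type and less RNA per cell cannot be told apart. Scaling factors were 0.857 to 0.872 in unstimulated and 0.951 to 1.11 in stimulated libraries. Without them the all-gene median of the log2 fold change against unstimulated cells moved from between 0.01 and 0.04 to 0.26, 0.30, 0.22 and 0.37 in the order IF 8 h, DC 8 h, IF 22 h, DC 22 h, so changes below are relative to the bulk of genes.

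Replicates 2 and 3 of IF 22 h stood apart from the other 13 libraries, replicate 1 of their own group included. The level of mt-Rnr2 was 1371 and 1037 CPM in them, against 14867 to 34230 CPM elsewhere, so the mean of the pair was 17.3-fold below the median of the others. For mt-Rnr1 the values were 511 and 441 CPM against 2006 to 7949 CPM, 6.37-fold below that median. Both libraries also lay below all others for mt-Nd5 (2812 and 2404 CPM against 2864 to 8258 CPM) and for mt-Tm (2.99 and 3.67 CPM against 3.75 to 18.97 CPM). They lay above all others for mt-Nd3, mt-Tt, mt-Tw and mt-Tl1. Calls against unstimulated cells that rest on this group are therefore given also without these libraries.

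**Figure D1:**
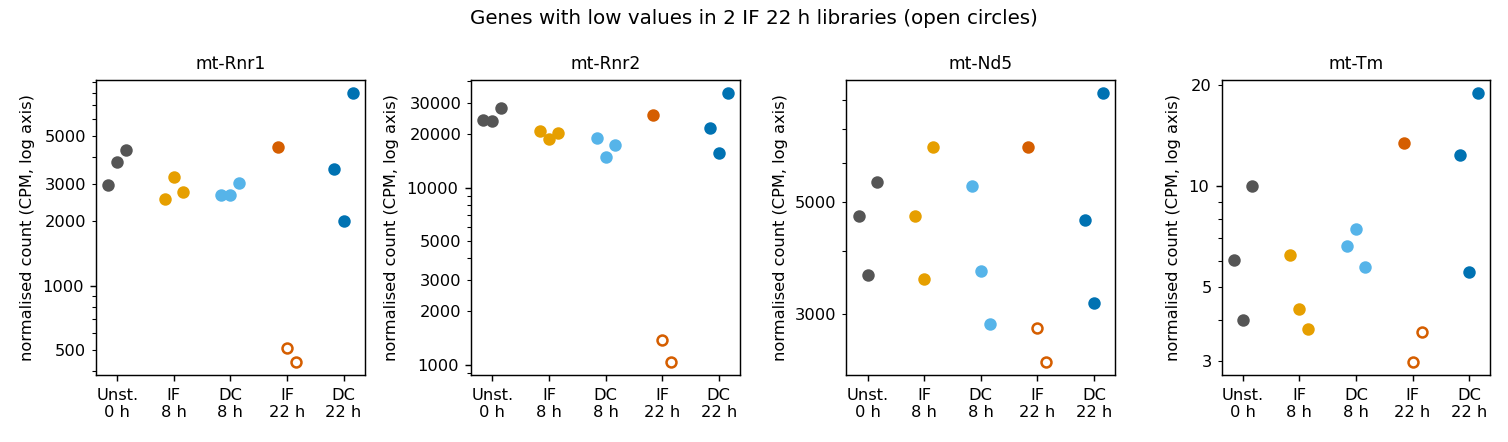
Normalised counts (CPM, log axis) of mt-Rnr1, mt-Rnr2, mt-Nd5 and mt-Tm, with 1 point per library and 3 libraries per group (Unst. is unstimulated). The open circles are IF 22 h replicates 2 and 3, which are the lowest points of each panel, with mt-Rnr2 at 1371 and 1037 CPM against at least 14867 CPM in the other 13 libraries.

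Mitochondrial transcripts took 11.5% to 15.9% of all counts in every group. The 13 protein-coding genes held 12.2% ± 1.84 (SD, n = 3) of counts in unstimulated cells. They held 11.4% ± 1.65 in IF 8 h cells, 11.3% ± 2.05 in DC 8 h cells, 13.4% ± 1.10 in IF 22 h cells and 10.3% ± 0.814 in DC 22 h cells. These groups overlapped, and stimulated and unstimulated libraries differed by -0.638 percentage points (two-sided exact permutation test, p = 0.598, adjusted p = 0.726 over 12 tests of shares). Without IF 22 h replicates 2 and 3 the difference was -1.13 points and again missed the threshold.

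Ribosomal RNA took 1.82% to 4.49% of counts in 13 libraries. The 3 IF 22 h libraries held 3.17%, 0.179% and 0.146%. The 95% Wilson intervals of the low pair were 0.176% to 0.182% for the former and 0.145% to 0.148% for the latter. Such intervals hold only the counting error, because reads copied by amplification are not separate molecules. At the other end, DC 22 h replicate 3 held 4.49%, the highest share of the 15 libraries. No comparison of the ribosomal share passed the test, and the sign of all 3 differences turned when the pair of IF 22 h libraries was left out.

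Transfer RNA counts were few, from 110 to 1928 per library. Of the 22 genes mt-Tw (2924 counts over all 15 libraries) and mt-Tt (2384) had the most, followed by mt-Tm (925) and mt-Th (333). The summed share is therefore weighted towards mt-Tw and mt-Tt and does not show a rise of the class as a whole. For mt-Tc and mt-Tv the counts were lower after stimulation, as given below. The share of all 22 genes was 0.00296% ± 0.00021 (SD, n = 3) in unstimulated cells. After IF it was 0.00481% ± 0.0014 (8 h) and 0.00853% ± 0.0011 (22 h), and after DC 0.00524% ± 0.0011 (8 h) and 0.00719% ± 0.00097 (22 h). The highest unstimulated library (0.00317%) lay below the lowest stimulated one (0.0038%). The 22 h libraries lay above the 8 h libraries without overlap after IF. After DC the lowest 22 h library (0.0061%, replicate 3) lay just below the highest 8 h library (0.00624%, replicate 1). By replicate number, which the tests below did not use, the DC share was higher at 22 h in all 3 pairs. It went from 0.00624% to 0.00795%, from 0.00541% to 0.00751% and from 0.00408% to 0.0061%. The difference was 0.00348 percentage points between stimulated and unstimulated libraries (exact permutation p = 0.0066, adjusted p = 0.06) and 0.00283 points between 22 h and 8 h within a stimulus (exact permutation p = 0.01, adjusted p = 0.06), so neither passed 0.05 after adjustment. Without IF 22 h replicates 2 and 3 the differences were 0.00296 and 0.00231 points, and neither passed. On a log2 scale of the share the former difference was 1.07 (exact permutation, adjusted p = 0.0264). It also passed on the scale of the share itself when any 1 of these libraries was omitted: replicate 2 or replicate 3 of IF 8 h, the third of DC 8 h, the third of IF 22 h (0.00318 to 0.00372 points, exact permutation, adjusted p = 0.033 in each). Relative to the protein-coding counts of the same library, transfer RNA had 2.20 to 2.70 counts per 10000 in the unstimulated group. After stimulation it had 3.79 to 7.85 counts per 10000, a description with no test. This ratio is weighted towards mt-Tw and mt-Tt in the same way.

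**Figure D2:**
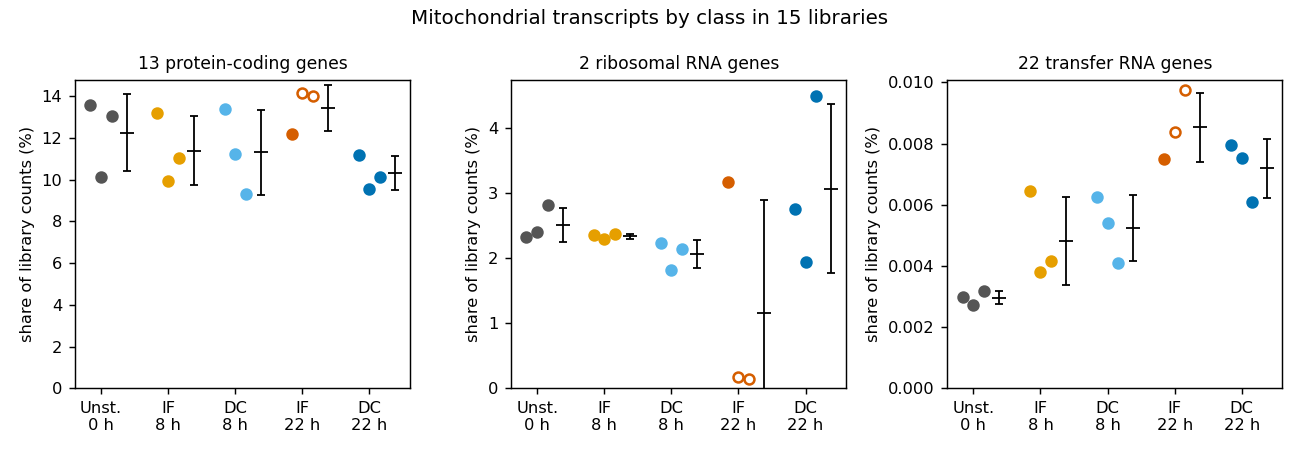
Share of library counts (%) taken by the 13 protein-coding, 2 ribosomal RNA and 22 transfer RNA genes, with 1 point per library, open circles for IF 22 h replicates 2 and 3, and bars for mean ± SD of 3 libraries (the lower bar of ribosomal RNA at IF 22 h is cut at 0). Protein-coding shares overlap between groups, and ribosomal RNA is 0.179% and 0.146% in the open circles. Transfer RNA shares, which are weighted towards mt-Tw and mt-Tt, are lowest in the unstimulated libraries.

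Levels of single genes differed widely within each library. Per kilobase of gene in unstimulated cells, mt-Atp6 had the highest level (37238 CPM per kb), followed by mt-Co2 (33517), mt-Cytb (23087), mt-Nd3 (20428) and mt-Rnr2 (16027). The lowest of the plus-strand coding genes were mt-Nd5 (2518) and mt-Atp8 (1833 CPM per kb). Because CEL-seq reads come from the 3′ side of an RNA, a level per length can understate long genes. It can also understate mt-Atp8 and mt-Nd4l, which lie before mt-Atp6 and mt-Nd4 on messenger RNAs that they share. The only coding gene on the minus strand, mt-Nd6 (a complex I subunit), had 436 counts over all 15 libraries, from 3 to 49 in each. Nuclear copies of at least 95% identity over 60 bases or more were found for 9 coding genes in the same annotation. None of these 11 nuclear pseudogenes had a row in the tables, so their reads cannot be told apart from those of the mitochondrial genes.

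Each stimulated group was compared with the same 3 unstimulated libraries, so these 4 comparisons are not independent of each other. With edgeR's quasi-likelihood test and Benjamini-Hochberg adjustment over all genes, mt-Tt rose in all 4 comparisons, and mt-Co3 and mt-Atp8 fell in 3 of them. At IF 8 h 4 of the 24 tested mitochondrial genes passed an adjusted p of 0.05 (16.7%, against 7.76% of all genes tested). The 3 that fell were mt-Co1, mt-Co3 and mt-Atp8 (4.72% of all genes fell), and mt-Tt rose (3.04% of all genes rose). At DC 8 h 5 passed (20.8%, against 6.82% of all genes), of which mt-Co3, mt-Nd4l, mt-Atp8 and mt-Tc fell (4.07% of all genes) and mt-Tt rose (2.75%). At IF 22 h 3 passed (12.5%, against 6.08%), of which mt-Tt and mt-Tw rose (2.63% of all genes) and mt-Tc fell (3.44%). With replicate 1 as the only IF 22 h library 2 passed, mt-Tt and mt-Atp8, and 0.833% of all genes did. At DC 22 h 8 passed (33.3%, against 7.76%), of which mt-Co1, mt-Co2, mt-Co3, mt-Atp6, mt-Atp8 and mt-Nd3 fell (4.35% of all genes) and mt-Tt and mt-Tw rose (3.41%).

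**Figure D3:**
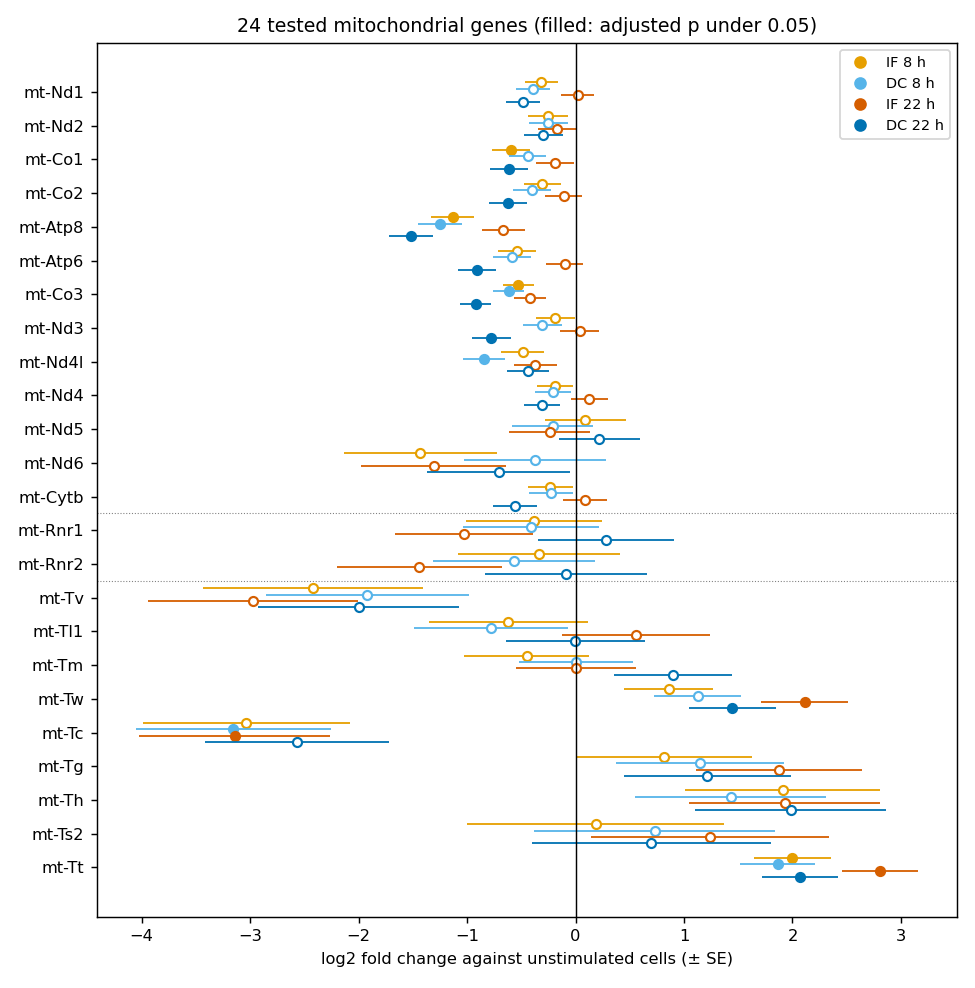
Log2 fold change ± SE of the 24 tested mitochondrial genes in each stimulated group against unstimulated cells, in chromosome order within coding, ribosomal and transfer RNA genes (dotted lines), filled where the edgeR adjusted p was under 0.05. Coding genes lie mostly left of 0, with mt-Atp8 farthest left among the filled coding genes at -1.52 in DC 22 h, and mt-Tt lies between 1.86 and 2.81 in all 4 groups.

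Complex V, the ATP synthase, has 2 subunits encoded here, mt-Atp6 (a subunit of the proton channel) and mt-Atp8 (a small subunit of its stalk). They are read from 1 messenger RNA with overlapping frames. As mt-Atp8 lies first on it, reads from the 3′ side of that RNA fall mostly in mt-Atp6. The level of mt-Atp8 was 368, 352 and 401 CPM in the unstimulated libraries. It was 187, 146 and 178 CPM after 8 h of IF, 176, 152 and 145 CPM after 8 h of DC, and 132, 130 and 129 CPM after 22 h of DC. IF 22 h held 151 CPM in replicate 1 and 294 and 262 CPM in replicates 2 and 3. Every stimulated library lay below every unstimulated one, and the pair that stood apart was the nearest to them. The log2 fold change was -1.13 ± 0.20 (SE, n = 3 per group) at IF 8 h (edgeR adjusted p = 0.00261), -1.25 ± 0.20 at DC 8 h (adjusted p = 0.00124) and -1.52 ± 0.20 at DC 22 h (adjusted p = 0.000323). At IF 22 h it was -0.67 ± 0.20 with an edgeR adjusted p of 0.0595. With replicate 1 as the only IF 22 h library it was -1.31 ± 0.23 (edgeR adjusted p = 0.0152), where the single library was assumed to vary like the other groups.

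For mt-Atp6 the unstimulated libraries held 29828, 20889 and 25360 CPM and the DC 22 h libraries 13952, 12437 and 14238 CPM. These groups did not overlap, and the log2 fold change was -0.91 ± 0.18 (edgeR adjusted p = 0.00442). At 8 h the levels were 20656, 14673 and 16893 CPM with IF and 19208, 17347 and 14167 CPM with DC, all below the unstimulated values, but the tests missed the threshold (-0.54 ± 0.18, edgeR adjusted p = 0.0698, and -0.58 ± 0.18, adjusted p = 0.0551). In the fit without IF 22 h replicates 2 and 3 both passed (-0.55 ± 0.15, edgeR adjusted p = 0.0384, and -0.58 ± 0.15, adjusted p = 0.0274), and with DESeq2 size factors the DC 8 h value passed. At IF 22 h replicate 1 held 17572 CPM and replicates 2 and 3 held 27342 and 26000 CPM, within the unstimulated range. The log2 fold change was -0.10 ± 0.17 with all 3 (edgeR adjusted p = 0.805) and -0.53 ± 0.21 with replicate 1 alone (adjusted p = 0.37).

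The raw counts of the 2 neighbours can be set against each other without any scaling. There were 1.23, 1.69 and 1.58 mt-Atp8 counts per 100 mt-Atp6 counts in the unstimulated libraries and 0.857 to 1.08 in the 12 stimulated ones, with no overlap. Replicates 2 and 3 of IF 22 h (1.08 and 1.01) lay with the other stimulated libraries in this ratio. The ratio was chosen after the values were seen and was not tested.

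**Figure D4:**
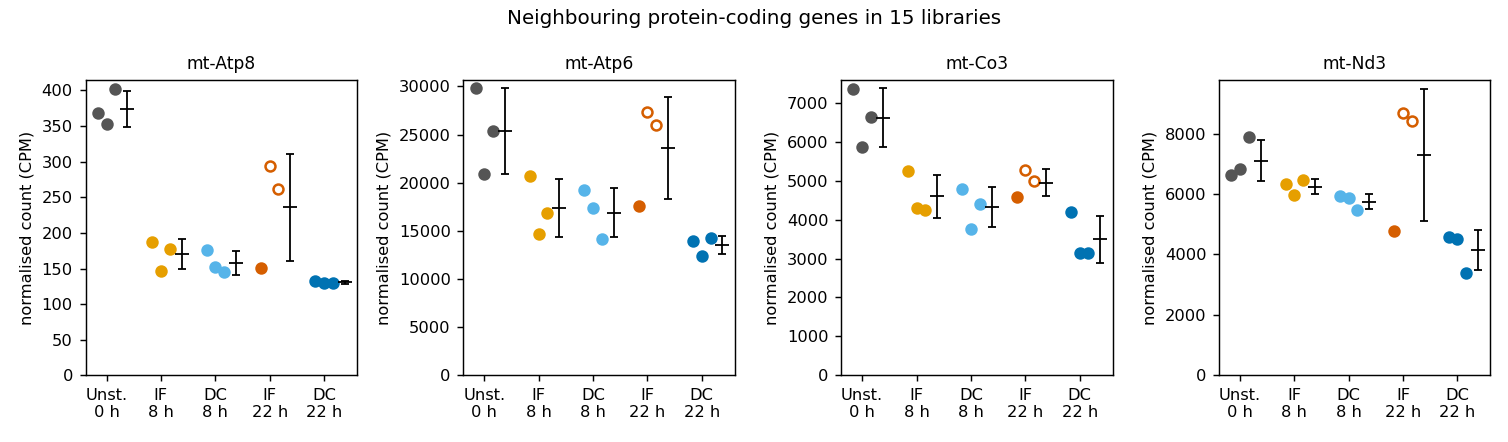
Normalised counts (CPM) of the adjacent genes mt-Atp8, mt-Atp6, mt-Co3 and mt-Nd3, with 1 point per library, open circles for IF 22 h replicates 2 and 3, and bars for mean ± SD of 3 libraries. All stimulated libraries lie below the unstimulated ones for mt-Atp8 and mt-Co3, while for mt-Atp6 and mt-Nd3 the open circles lie within or above the unstimulated range.

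Complex IV, cytochrome c oxidase, takes its 3 core subunits from mt-Co1, mt-Co2 and mt-Co3. Levels of mt-Co3 were 7358, 5857 and 6630 CPM in unstimulated cells, 5236, 4297 and 4252 CPM at IF 8 h, 4781, 3763 and 4397 CPM at DC 8 h, and 4185, 3151 and 3142 CPM at DC 22 h. It fell by 0.53 (SE 0.14, edgeR adjusted p = 0.0354), by 0.62 (SE 0.14, adjusted p = 0.015) and by 0.92 (SE 0.14, adjusted p = 0.000981) on the log2 scale. At IF 22 h the 3 libraries held 4579, 5270 and 4995 CPM, also below every unstimulated library, with a log2 fold change of -0.42 ± 0.14 (edgeR adjusted p = 0.1), and -0.53 ± 0.21 with replicate 1 alone (adjusted p = 0.349). For mt-Co1 the unstimulated libraries held 18879, 15593 and 20604 CPM, against 15480, 10760 and 10309 CPM at IF 8 h and 13887, 10659 and 11398 CPM at DC 22 h. It fell by 0.59 (SE 0.17) and by 0.62 (SE 0.17) on the log2 scale, close to the threshold in both (edgeR adjusted p = 0.0479 and 0.0387). The third core subunit, mt-Co2, passed the test at DC 22 h only, at 17253, 13597 and 13771 CPM against 25695, 18358 and 24722 CPM (log2 -0.62 ± 0.17, edgeR adjusted p = 0.0354). Single libraries decided several of these calls, and those named here are the ones whose omission ended a call. For mt-Co1 at IF 8 h they were unstimulated 1 and 3, IF 8 h 2 and 3, IF 22 h 2 and 3 and DC 22 h 1 and 3 (edgeR adjusted p up to 0.184), and at DC 22 h unstimulated 1 and 3 and DC 22 h 2 and 3 (up to 0.166). For mt-Co3 they were unstimulated 1 and 3 and IF 8 h 2 and 3 at IF 8 h (up to 0.133), and unstimulated 1 and DC 8 h 2 at DC 8 h (up to 0.0801). For mt-Co2 they were unstimulated 1 and 3, IF 8 h 3 and DC 22 h 2 and 3 (up to 0.139).

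Complex I, the NADH dehydrogenase, has 7 subunits encoded here (mt-Nd1 to mt-Nd6 and mt-Nd4l), and few of them moved. For mt-Nd3 the levels were 6614, 6821 and 7891 CPM in unstimulated cells and 4562, 4509 and 3393 CPM at DC 22 h (log2 -0.77 ± 0.18, edgeR adjusted p = 0.0137). For mt-Nd4l, which shares 7 bases and a messenger RNA with mt-Nd4, they were 953, 669 and 751 CPM in unstimulated cells and 467, 434 and 421 CPM at DC 8 h (log2 -0.84 ± 0.20, edgeR adjusted p = 0.0147). Neither pair of groups overlapped. The mt-Nd3 call ended without unstimulated replicate 3 (edgeR adjusted p = 0.0729), and the mt-Nd4l call without unstimulated replicate 1 or DC 8 h replicate 2 (up to 0.081). The other 5 passed in none of the 4 comparisons, with log2 fold changes from -1.43 ± 0.71 (mt-Nd6, IF 8 h) to 0.22 ± 0.37 (mt-Nd5, DC 22 h). Complex I genes together held 29.5% ± 1.11 (SD, n = 3) of protein-coding counts in unstimulated cells. After 8 h the share was 32.6% ± 2.46 with IF and 31.4% ± 1.83 with DC, and after 22 h it was 30.5% ± 2.16 with IF and 34.6% ± 1.99 with DC. IF 22 h replicates 2 and 3, at 29.2% and 29.4%, lay inside the unstimulated range of 28.2% to 30.2%. Over all stimulated libraries the share was higher by 2.78 percentage points (exact permutation p = 0.0791, adjusted p = 0.316), and without IF 22 h replicates 2 and 3 by 3.37 points, which did not pass either. The subunit of complex III, mt-Cytb (cytochrome b), passed in no comparison, and was lowest relative to unstimulated cells at DC 22 h (-0.55 ± 0.20, edgeR adjusted p = 0.111).

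The size of these decreases depended on scaling. With the scaling used here 12, 13, 9 and 12 of the 13 coding genes had a log2 fold change below 0 in that order of groups, with medians of -0.31, -0.39, -0.17 and -0.62 against 0.02, 0.04, 0.01 and 0.04 over all genes. Scaled by library size alone, 9, 9, 5 and 10 lay below 0, the medians were -0.07, -0.13, 0.04 and -0.28, and the sign at IF 22 h thus flipped. The all-gene medians moved up with them, to 0.26, 0.30, 0.22 and 0.37, so that the coding median stayed below the all-gene median in each comparison. The calls by library size alone among coding genes were mt-Atp8 in both 8 h groups, none at IF 22 h, and mt-Atp6, mt-Co3 and mt-Atp8 at DC 22 h.

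The transfer RNA of threonine, mt-Tt, follows mt-Cytb with no base between them. It had 32, 26 and 15 counts in the unstimulated libraries, or 4.70, 4.70 and 3.49 CPM. Levels after IF were 21.8, 13.3 and 16.6 CPM (8 h) and 23.7, 32.9 and 34.7 CPM (22 h). Levels after DC were 17.7, 19.9 and 9.69 CPM (8 h) and 14.2, 26.5 and 13.9 CPM (22 h). All 12 stimulated libraries lay above the unstimulated ones. The log2 fold changes were 2.00 ± 0.35 (edgeR adjusted p = 0.00245), 1.86 ± 0.35 (adjusted p = 0.0034), 2.81 ± 0.35 (adjusted p = 0.000134) and 2.07 ± 0.35 (adjusted p = 0.0015) at IF 8 h, DC 8 h, IF 22 h and DC 22 h. With replicate 1 as the only IF 22 h library the value was 2.45 ± 0.45 (edgeR adjusted p = 0.0173). Per 10000 counts of its neighbour mt-Cytb, mt-Tt had 1.49, 2.33 and 1.27 counts in the unstimulated group and 5.81 to 16.1 after stimulation, again with no overlap.

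The transfer RNA of tryptophan, mt-Tw, starts 2 bases inside the end of mt-Nd2. Its levels were 8.37, 8.86 and 7.91 CPM in unstimulated cells, 25.2, 11.6 and 8.04 CPM at IF 8 h, and 24.8, 15.2 and 14.98 CPM at DC 8 h. At 22 h they were 20.5, 40.04 and 48.1 CPM with IF and 28.7, 24.4 and 15.6 CPM with DC. IF 8 h replicate 3 lay within the unstimulated range and the other 11 stimulated libraries above it. The rise passed the test at IF 22 h (log2 2.11 ± 0.40, edgeR adjusted p = 0.00463) and DC 22 h (1.44 ± 0.40, adjusted p = 0.0344). It did not at IF 8 h (0.86 ± 0.41, edgeR adjusted p = 0.223) or DC 8 h (1.13 ± 0.40, adjusted p = 0.107). With replicate 1 alone the IF 22 h value was 1.29 ± 0.50 and no longer passed (edgeR adjusted p = 0.341). The DC 22 h call ended without any 1 of the unstimulated libraries or without DC 22 h replicate 1 or 2 (edgeR adjusted p up to 0.122), and also when all libraries were thinned to the smallest.

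**Figure D5:**
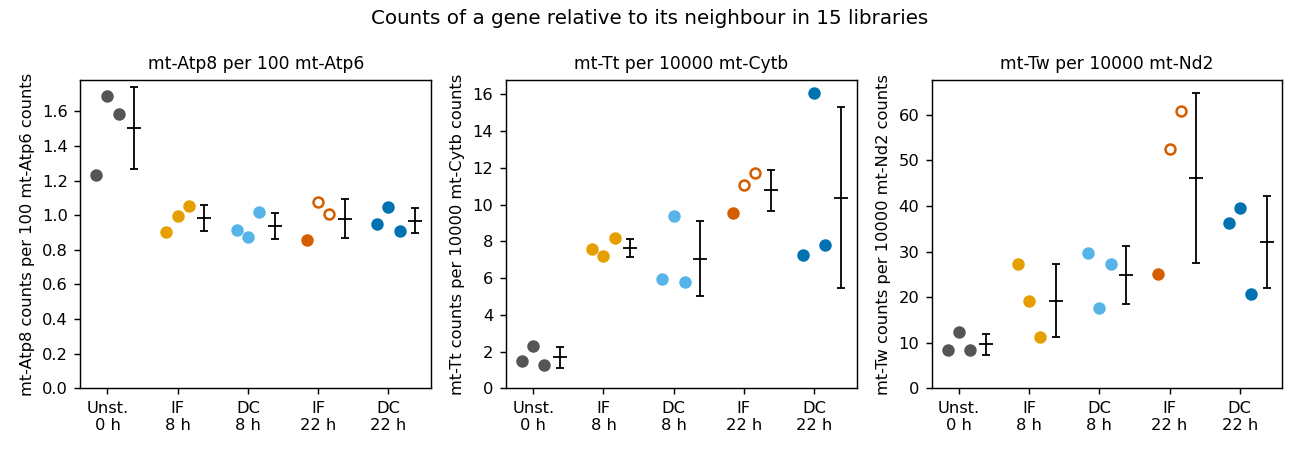
Raw counts of mt-Atp8 per 100 counts of mt-Atp6, of mt-Tt per 10000 counts of mt-Cytb and of mt-Tw per 10000 counts of mt-Nd2, with 1 point per library, open circles for IF 22 h replicates 2 and 3, and bars for mean ± SD of 3 libraries. The first ratio is 1.23 or more in unstimulated and 1.08 or less in stimulated libraries, the second is 2.33 or less against 5.81 or more, and the third overlaps in 1 library.

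Among the remaining transfer RNAs mt-Tc alone passed a test, at very low counts. The minus-strand mt-Tc had 18, 13 and 14 counts in the unstimulated group and 1 to 9 after stimulation, or 2.35 to 3.26 CPM against 0.099 to 0.769 CPM. It passed at DC 8 h (log2 -3.15 ± 0.90, edgeR adjusted p = 0.0431) and IF 22 h (-3.14 ± 0.88, adjusted p = 0.0431). Leaving out any 1 of the 15 libraries ended both calls, with edgeR adjusted p from 0.0531 to 0.169 at DC 8 h and from 0.0548 to 0.221 at IF 22 h. With replicate 1 as the only IF 22 h library the mt-Tc value was -2.48 ± 1.56 (edgeR adjusted p = 0.641). The transfer RNA of valine between the ribosomal RNAs, mt-Tv, had 14, 18 and 14 counts in the unstimulated group and 0 to 12 after stimulation, and passed in no comparison (smallest edgeR adjusted p = 0.0822, IF 22 h). The histidine transfer RNA mt-Th had 15, 0 and 1 counts in the unstimulated group and 7 to 56 after stimulation, and passed in no comparison either. The use of strand in counting is not given in the sources used here, so reads of minus-strand genes such as mt-Tc and mt-Nd6 may include reads of the plus-strand precursor. The 13 transfer RNAs left out of the test had 3 to 62 counts each over all 15 libraries.

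With the low-count filter and all libraries, neither ribosomal RNA passed the test against unstimulated cells in any group. For mt-Rnr2 the levels were 24163, 23772 and 28127 CPM in unstimulated cells, 20864, 18827 and 20513 CPM after 8 h of IF, 19119, 14867 and 17434 CPM after 8 h of DC, and 21716, 15648 and 34230 CPM after 22 h of DC. IF 22 h replicate 1 held 25654 CPM, inside the unstimulated range. For mt-Rnr1 they were 2975, 3796 and 4305 CPM in unstimulated cells, 2537, 3216 and 2755 CPM at IF 8 h, 2659, 2650 and 3033 CPM at DC 8 h, and 3509, 2006 and 7949 CPM at DC 22 h. At IF 22 h the log2 fold change of mt-Rnr2 was -1.44 ± 0.76 (edgeR adjusted p = 0.306), against 0.02 ± 0.27 without replicates 2 and 3 (adjusted p = 1) and -4.39 without replicate 1. For mt-Rnr1 the same values were -1.03 ± 0.63 (edgeR adjusted p = 0.392), 0.28 ± 0.45 (adjusted p = 0.904) and -2.95. The values without replicate 1 rest on the pair singled out for low ribosomal RNA, so they are a description with no test. Without the low-count filter, and with all 3 libraries, mt-Rnr2 was at -1.43 ± 0.24 and mt-Rnr1 at -1.02 ± 0.22 at IF 22 h. In that fit they were at -1.35 ± 0.24 and -1.31 ± 0.23 with IF against DC at 22 h. Both genes passed the threshold there, but these values include the pair singled out for low ribosomal RNA. They are therefore also a description and no test. The 3 libraries of this group therefore give no common value for ribosomal RNA. Within the pair mt-Rnr1 was also less reduced than mt-Rnr2, at 37.2 and 42.5 counts per 100 mt-Rnr2 counts against 12.2 to 23.2 in the other 13 libraries.

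Direct comparison of the stimuli at 8 h found 0 of the 24 genes different by edgeR (0.665% of all genes passed, 0.231% higher and 0.434% lower with IF), 0 with an unadjusted p under 0.05 and 0 by DESeq2. For mt-Atp8 the IF minus DC difference was 0.11 ± 0.20 on the log2 scale and for mt-Tt 0.13 ± 0.32. At 22 h 3 genes were higher with IF than with DC by edgeR (12.5%, against 2.43% of all genes, 1.23% higher and 1.2% lower): mt-Atp8 by 0.85 ± 0.20 (adjusted p = 0.0321), mt-Atp6 by 0.80 ± 0.18 (adjusted p = 0.022) and mt-Nd3 by 0.81 ± 0.18 (adjusted p = 0.0231). For all 3 no IF library overlapped a DC library at 22 h. These genes were picked by their p-value, and no share of all genes without overlap is given, so this adds no support. Most of the difference lay in replicates 2 and 3, since for mt-Nd3 the IF libraries held 4789, 8695 and 8412 CPM against 4562, 4509 and 3393 CPM with DC. Without that pair the differences were 0.20 ± 0.21, 0.37 ± 0.20 and 0.20 ± 0.17 and 0 mitochondrial genes passed (edgeR adjusted p = 0.977, 0.975 and 0.975, with 0.0673% of all genes passing). Without replicate 1 instead, 9 passed, a count that rests on the pair that stood apart and is given as a description. In a fit of these 2 groups alone, 0 passed. The shares of all genes in these 2 fits are not given here, so neither count is a result about mitochondrial genes in particular. Leaving out any 1 of IF 22 h replicates 2 and 3 or of DC 22 h replicates 1 to 3 ended at least 1 of the 3 calls (edgeR adjusted p up to 0.209 for mt-Atp8, 0.119 for mt-Atp6 and 0.137 for mt-Nd3). By library size alone mt-Nd3 and mt-Atp6 passed, and the mt-Atp8 call also ended with the replicate block.

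Between 22 h and 8 h 0 of 24 genes passed edgeR's test with IF (6 with an unadjusted p under 0.05, 0 by DESeq2, and 1.12% of all genes passed, 0.637% higher and 0.48% lower at 22 h) and 0 with DC (2 with an unadjusted p under 0.05, 0 by DESeq2, 0.48% of all genes, 0.379% higher and 0.102% lower). The smallest edgeR adjusted p was that of mt-Tw with IF, at 1.25 ± 0.39 and 0.143. A change of the IF to DC difference between the times was found for 0 genes (5 with an unadjusted p under 0.05, 0 by DESeq2, and 0% of all genes by edgeR). The same-numbered libraries of DC 8 h and DC 22 h deviated together, and in a fit of these 2 groups with the replicate number as a block mt-Nd3 passed as lower at 22 h (-0.49 ± 0.09, edgeR adjusted p = 0.0398), 1 of 21 mitochondrial genes tested there (9 had an unadjusted p under 0.05). In that fit 166 of 10182 genes passed in all (1.63%), against 0 in the same fit without the block and 52 in the fit of all groups. Without IF 22 h replicates 2 and 3 that group holds 1 library, so no count of passing genes is drawn from that fit for these comparisons. As a description that rests on the pair, without IF 22 h replicate 1, 6 mitochondrial genes passed between the times with IF and 5 for the change of the difference. The shares of all genes in these fits are not given here, so the counts are no result about mitochondrial genes in particular.

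Nuclear genes that serve mitochondrial RNA were also read, from lists chosen with earlier results of these data known. Over all genes 2.63% to 3.41% rose in a comparison with unstimulated cells, and the counts below are read against that share. Of 6 tested genes of mitochondrial transcription 0 passed against unstimulated cells, among them Polrmt, the mitochondrial RNA polymerase (0.62 ± 0.25 at IF 8 h, edgeR adjusted p = 0.137), and Tfam, which packages mitochondrial DNA (-0.03 to 0.12 over the 4 groups). Of 22 tested genes of RNA processing and modification 1 rose in each group, the transfer RNA methyltransferase Trmt5. Its level was 11.7 ± 0.968 CPM (SD, n = 3) in unstimulated cells, 29.9 ± 3.94 and 25.2 ± 2.22 CPM after 8 h and 22 h of IF, and 26.3 ± 5.45 and 24.1 ± 1.72 CPM after 8 h and 22 h of DC. The log2 fold changes were 1.36 ± 0.21 (IF 8 h), 1.11 ± 0.21 (IF 22 h), 1.17 ± 0.21 (DC 8 h) and 1.05 ± 0.21 (DC 22 h) (largest edgeR adjusted p = 0.00551). With replicate 1 as the only IF 22 h library the Trmt5 value was 1.07 and no longer passed (edgeR adjusted p = 0.139). Of 17 genes of RNA stability and decay 1 rose at DC 8 h and at DC 22 h, Slirp, the partner of Lrpprc in holding mitochondrial messenger RNAs (0.92 ± 0.25 in both, edgeR adjusted p = 0.0338 and 0.0326). Both Slirp calls ended without any 1 of the unstimulated libraries, the DC 8 h call also without DC 8 h replicate 1 or 2 (edgeR adjusted p up to 0.166) and the DC 22 h call without DC 22 h replicate 2 (log2 0.52, adjusted p = 0.155). Of 12 genes of mitochondrial DNA replication and nucleoids 1 rose at DC 22 h, the single-strand DNA binding protein Ssbp1 (0.83 ± 0.22, edgeR adjusted p = 0.0269), and that call ended without any 1 of the unstimulated libraries or DC 22 h replicate 2 (up to 0.109).

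Those nuclear subunits of the same complexes that passed were lower than in unstimulated cells, at shares read against the 3.44% to 4.72% of all genes that fell in these comparisons. Of 35 tested complex I subunits 2 passed at IF 8 h (Ndufv3 and Ndufa2), 2 at DC 8 h (Ndufv3 and Ndufa10), 1 at IF 22 h (Ndufa10) and 3 at DC 22 h (Ndufa3, Ndufv3 and Ndufa2), with log2 fold changes from -0.89 to -0.55. Except for Ndufv3 at DC 8 h, each of these calls and those that follow for complexes IV and V ended when some single library was left out (largest edgeR adjusted p = 0.148, Ndufa2 at DC 22 h without unstimulated replicate 2). With replicate 1 as the only IF 22 h library Ndufa10 was at -0.59 there (edgeR adjusted p = 0.473). Of 12 complex IV subunits Cox6a1 (-0.57 ± 0.13) and Cox8a (-0.47 ± 0.14) passed at IF 8 h. Of 16 complex V subunits Atp5h (-0.51 ± 0.13) and Atp5e (-0.59 ± 0.15) passed at IF 8 h and Atp5e (-0.58 ± 0.15) at DC 22 h by edgeR. Of 9 complex III subunits 0 passed in any comparison. The median log2 fold changes of nuclear complex IV subunits, in the order IF 8 h, DC 8 h, IF 22 h and DC 22 h, were -0.29, -0.29, 0.04 and -0.20. Those of complex V subunits were -0.19, -0.11, 0.08 and -0.09. Those of complex I subunits were -0.14, -0.09, -0.02 and -0.08, and those of complex III subunits -0.20, 0.01, 0.01 and -0.15. Those of the 13 mitochondrial coding genes were -0.31, -0.39, -0.17 and -0.62. The difference between nuclear and mitochondrial genes was not tested.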

How the data were processed

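RNA of 15 sorted CD8+ T cell libraries (5 groups of 3) was sequenced with adapted CEL-seq, which primes with barcoded oligo-dT and amplifies by in vitro transcription, per the labels' protocols. The authors deposited raw counts per gene. BWA and build mm10 are named in the submitters' processing notes. The counting program, annotation, strand and use of molecular identifiers are not given in the sources used here. The subject (the chrM genes) and the nuclear gene lists were chosen with earlier results of these data known, although membership follows from the chromosome alone.

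The tests used edgeR 4.0.16 (with limma 3.58.1, in R 4.3.3). Genes were kept by filterByExpr (minimum count 10, minimum total 15), scaled by TMM and fitted with one quasi-likelihood model of 5 group means. Tests were two-sided, adjusted by Benjamini-Hochberg over the 10831 genes, at 0.05. Fold changes are log2 with a prior count of 0.125. CPM are TMM-scaled. Shares were compared by exact permutation over libraries, within times for IF against DC and within stimuli for 22 h against 8 h. All chrM genes were eligible to be named, and of the nuclear lists up to 4 genes past the threshold per list and comparison, plus Tfam, Polrmt, Tfb2m, Lrpprc and Slirp. The main model held no block by replicate number, so its test of DC 22 h against 8 h used no pairing. Only an alternative fit, chosen after seeing the data, took the numbers to pair DC 8 h with DC 22 h. There the deviations of all 3 same-numbered pairs correlated above 0.1 (0.116 to 0.399), as in no other groups. The labels do not say what a number marks. The scripts were tested on simulated data. DESeq2 1.42.0 was an alternative, as were other scalings, filters, sets of libraries in the fit, thinned counts, the replicate block and leaving out libraries. Library totals ran from 2892874 to 19806730 counts, so that 3 counts, taken as the detection floor, correspond to 0.153 to 0.995 CPM.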

Additional observations from a re-analysis of the deposited data

How the results depend on the processing

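For 68 results 1613 values were recalculated. Of 1171 values of named genes 952 kept their direction and their side of the threshold, and 3 reversed. Of 216 differences of shares 201 kept both, and 10 reversed. Of 226 counts of called genes 197 lay within a set ratio of the main count, where direction and threshold were not checked. The calls of mt-Atp8 (IF 8 h, DC 8 h, DC 22 h), mt-Tt (4 groups), and mt-Atp6 and mt-Co3 (DC 22 h) held in all 25 alternatives. Counts of mitochondrial genes called moved as follows. In this section they stand without the count of all genes called, so a move need not be particular to mitochondrial genes. By library size alone they were 2 (IF 8 h), 3 (DC 8 h) and 5 (DC 22 h). With only the groups compared they were 8 (IF 8 h), 8 (DC 8 h) and 0 (IF against DC at 22 h). Without a low-count filter they were 5 (IF 22 h), 8 (IF against DC at 22 h), 2 (IF 22 h against 8 h) and 2 (interaction). DESeq2 gave 5 (IF 22 h).

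Without IF 22 h replicates 2 and 3, IF against DC at 22 h gave 0 calls, mt-Rnr1 and mt-Rnr2 against unstimulated cells turned to 0.28 and 0.0184, and mt-Rnr2 in IF against DC at 22 h to 0.10. The protein-coding share at 22 h against 8 h turned to -0.119 points, the ribosomal share to 0.048 (stimulated), 0.186 (IF against DC) and 0.911 (22 h against 8 h), and the transfer RNA share of IF against DC to -6.26e-05. The cause was not tested. With all libraries, the transfer RNA share of stimulated against unstimulated cells passed on a log2 scale at 1.07.

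Leaving out each library in turn gave 2 to 5 calls (IF 8 h), 2 to 5 (DC 8 h), 2 to 5 (IF 22 h), 4 to 9 (DC 22 h), 0 to 9 (IF against DC at 22 h), 0 to 6 (IF 22 h against 8 h) and 0 to 5 (interaction). These counts also have no share of all genes beside them. The lowest count at IF 8 h came without unstimulated replicate 3 and without IF 8 h replicate 2 or 3. At DC 22 h it came without unstimulated replicate 3, and at DC 8 h without DC 8 h replicate 2. The protein-coding share of stimulated libraries ranged from -1.69 to 0.0183 points, the ribosomal share at 22 h against 8 h from -0.591 to 0.189, the complex I share at 22 h against 8 h from -0.0286 to 1.27, and the transfer RNA share of stimulated libraries from 0.00318 to 0.00372.

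Same-numbered libraries deviated together between DC 8 h and DC 22 h, where the fit of these groups with the replicate block, chosen after seeing the data, gave 1 call in place of 0. In none of the other 9 pairs of groups did all 3 same-numbered libraries correlate above 0.1, a limit set after seeing the data. Between unstimulated and DC 8 h all 3 correlated best with their own number, at low values (0.025 to 0.067). Of all 30 same-numbered pairs 4 correlated above 0.1 (range -0.189 to 0.399), and 11 correlated best with their own number. With the replicate block over all groups the counts were 4, 4, 2 and 8 against unstimulated cells, 2 for IF against DC at 22 h and 0 in the other comparisons. The 13 transfer RNAs that the low-count filter left out had 3 to 62 counts each over all libraries.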

Other observations

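Ratios of some transfer RNAs to a neighbouring gene gave values that belong to no test. Per 10000 counts of mt-Co3, the glycine transfer RNA mt-Tg had 0.351 to 1.397 counts in the unstimulated libraries and 2.72 to 5.17 in the 6 libraries of 22 h. The 8 h libraries held 1.26 to 4.29, of which replicate 3 of IF (1.26) and of DC (1.34) lay within the unstimulated range. The ratios were chosen after their values were seen. The methionine transfer RNA mt-Tm, which precedes mt-Nd2, had 3.91 and 4.65 counts per 10000 mt-Nd2 counts in IF 22 h replicates 2 and 3, against 5.31 to 25.1 in the other 13 libraries. The highest ratio was that of DC 22 h replicate 3, which had the highest mt-Nd5 (8258 CPM) and mt-Rnr2 (34230 CPM) of all 15 libraries.

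In IF 22 h replicates 2 and 3, mt-Tl1 (the leucine transfer RNA after mt-Rnr2) had 22.7 and 28.5 counts per 10000 mt-Rnr2 counts, against 0.176 to 1.13 in the other 13 libraries. The mt-Tl1 level itself was 3.11 and 2.96 CPM in the pair and 0.332 to 2.39 CPM elsewhere, while mt-Rnr2 was 17.3-fold below the median of the others.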
